A study of Homo sapiens with 4 samples.

Results

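Dense runs of m6A are short stretches of a transcript in which several neighbouring adenosines were listed as methylated. They were collected from 18789 m6A sites listed for C643 cells, a cell line derived from an anaplastic thyroid carcinoma. Listed sites were ordered by chromosome, strand and position, neighbours on the same strand at most 50 nt apart in the genome were joined into a chain, and every chain of 4 or more sites was kept as a run. This gave 287 runs with 1245 sites, which are 6.63% of all listed sites (95% Wilson interval 6.28 to 6.99). The runs were chosen from the positions of the listed sites, so their number, density and spacing are descriptions of what the rule selected.

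The list comes from miCLIP2, in which polyadenylated RNA of untreated, wild-type cells was fragmented, UV-crosslinked to an antibody against m6A and sequenced from the truncation points of the cDNA. There was 1 group with 3 biological replicates in 4 libraries, since replicate 1 was sequenced as 2 technical libraries. The replicates share 1 deposited list, in which each site carries the score of m6Aboost, a machine-learning classifier that keeps sites with a score of at least 0.5. The classifier read the sequence around a site, its transcript region and its signal relative to the other peaks of the transcript. It also read the number of C-to-T changes in reads that ran through the crosslink. Motif, region and score are therefore not independent of each other. No library depth, control without m6A or separate replicate was analysed here, and no test between groups of samples was possible. The intervals given below are 95% intervals that cover the sampling of sites only, and sites of 1 run share a transcript and often overlapping reads.

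N6-methyladenosine is a methyl mark on adenosines inside messenger RNAs. It is written mainly by the METTL3-METTL14 complex at adenosines in the DRACH motif (D is A, G or T, R is A or G and H is A, C or T), and it is read by YTH-domain proteins that affect splicing, translation and decay of the transcript. The motif is far commoner than the mark, and stretches of RNA close to splice junctions are usually spared.

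The run with the most sites lay in the coding sequence of CKAP4, a transmembrane protein of the endoplasmic reticulum that binds microtubules. The coding runs shown here were picked for site number (CKAP4 and MAP3K11, a mixed-lineage kinase), for short span (SH3BP5L, an exchange factor for RAB11, and HPS6, a subunit of the BLOC-2 trafficking complex) and for the lowest median score of any run (TMEM186, a mitochondrial assembly factor). They are written 5′ to 3′ from GRCh38 with 2 bases on either side of the outer sites, and each capital A is a listed site. Their positions are chr12:106239116-106239285 on the minus strand for CKAP4, chr11:65598332-65598427 on the minus strand for MAP3K11, chr1:248812158-248812193 on the minus strand for SH3BP5L, chr10:102066204-102066233 on the plus strand for HPS6 and chr16:8795999-8796090 on the minus strand for TMEM186.
CKAP4: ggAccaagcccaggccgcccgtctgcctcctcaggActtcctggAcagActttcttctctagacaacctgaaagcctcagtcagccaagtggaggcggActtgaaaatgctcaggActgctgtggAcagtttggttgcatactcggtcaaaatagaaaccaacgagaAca
MAP3K11: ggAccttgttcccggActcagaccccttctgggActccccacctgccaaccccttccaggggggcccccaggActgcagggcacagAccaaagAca
SH3BP5L: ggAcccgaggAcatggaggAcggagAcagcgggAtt
HPS6: ggAcgaggggAcacatgggActtccggAcc
TMEM186: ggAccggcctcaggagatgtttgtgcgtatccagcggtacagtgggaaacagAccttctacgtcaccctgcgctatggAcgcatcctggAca

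The shortest runs lay in 3' UTRs and show how closely listed sites can be packed. EPHA2, an ephrin receptor tyrosine kinase, held 4 listed sites in 13 nt, MAPK12, a p38 kinase, held 4 in 16 nt, and RRP12, a factor of ribosome export, held 4 in 18 nt. TEX264, a receptor for selective autophagy of the endoplasmic reticulum, and ITGA3, the integrin alpha 3 chain, are added as the next short runs with 4 and 5 sites in 23 and 26 nt. In EPHA2, MAPK12, RRP12 and TEX264 a pair of listed adenosines stands next to each other. The upstream A of the pair was outside DRACH and scored 0.513, 0.635, 0.522 and 0.582, in that order. Without it each of these chains would fall below 4 sites.
EPHA2: agActgtgAActtgAct
MAPK12: tgAActttctggAcaagAcc
RRP12: ggActcaggatgActtggAAct
TEX264: ggAActgagcagActctccagcagAct
ITGA3: ggAttgActttgctgtcaaaActActgAca
These lie on GRCh38 at chr1:16124776-16124792 (minus), chr22:50253190-50253209 (minus), chr10:97356970-97356991 (minus), chr3:51704053-51704079 (plus) and chr17:50089690-50089719 (plus), in the order of the lines.

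Of the 287 runs, 217 held 4 sites, 47 held 5, 20 held 6, 2 held 7 and 1 held 8. Outside the runs, 669 chains held 3 sites, 2507 held 2, and 10523 sites had no listed neighbour within 50 nt. The span from the first to the last site had a median of 81 nt (quartiles 62 and 98.5) and ranged from 13 nt in EPHA2 to 200 nt in ARTN. A run of 4 spanned a median of 76 nt and a run of 6 a median of 104 nt. Inside the spans, 5.29 sites were listed per 100 nt. The 2 strands held 143 and 144 runs.

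Sites in CKAP4 scored 0.757, 0.780, 0.719, 0.826, 0.804, 0.854, 0.824 and 0.703 from 5′ to 3′. All 8 lay at DRACH motifs, in the last exon from position -257 to position -92 relative to the start of the stop codon, and 3 of them shared the pentamer GGACT. ARTN, which encodes a ligand of the GDNF family, held 7 sites (chr1:43936940-43937139, plus strand), spread over 200 nt of the 3' UTR with scores from 0.726 to 0.918. ENG and DDX23 followed with 6 sites in 56 and 68 nt of their 3' UTRs. DDX23, a helicase of the spliceosome, had scores between 0.751 and 0.880 at DRACH motifs throughout. ENG, the TGF-beta co-receptor endoglin, had a wider range, from 0.502 at the last site to 0.944, and 2 of its 6 sites were outside DRACH. The map of named runs shows these contrasts in spacing, motif and score.

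**Figure D1:**
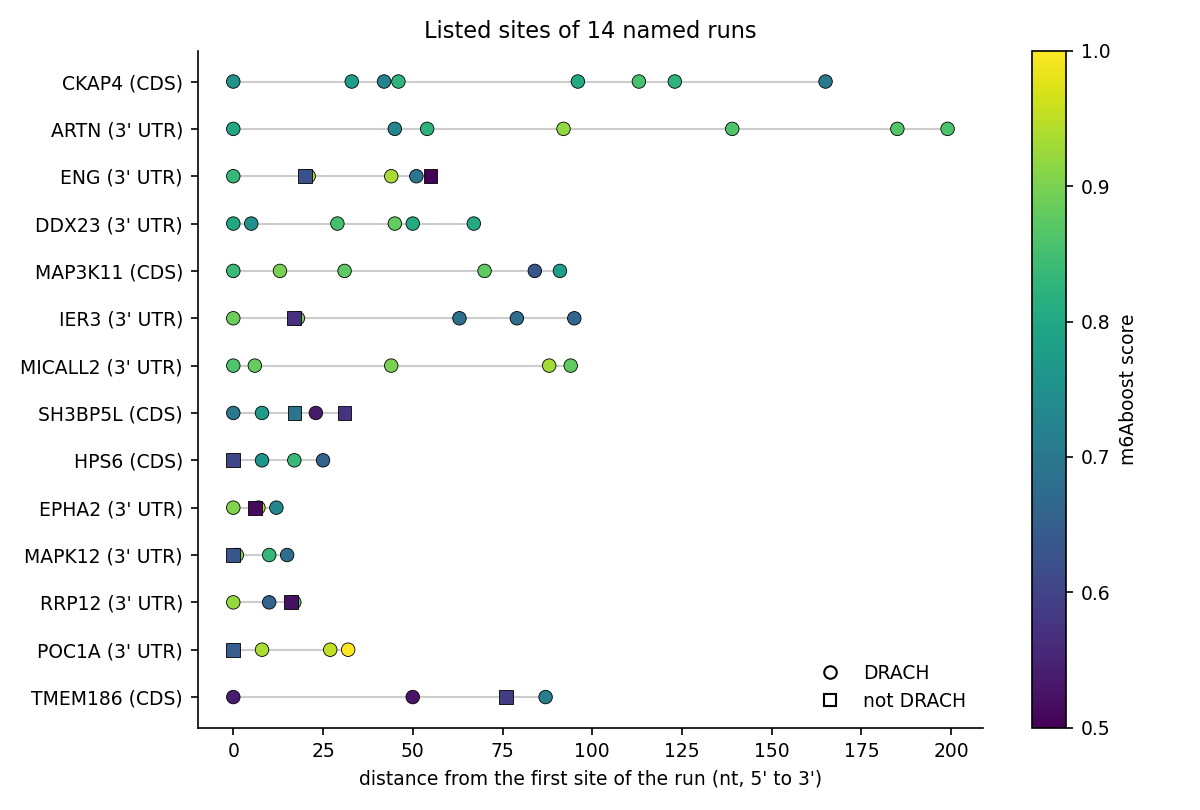
Position of every listed site in 14 named runs, as distance in nt from the first site of the run (x axis), with the m6Aboost score as colour, circles for DRACH and squares for other motifs. Spans go from 13 nt in EPHA2 to 200 nt in ARTN, and adjacent sites, as in EPHA2 and MAPK12, overlap in the drawing.

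The runs fell in 276 of the 3856 genes with a listed site, or 7.16% (6.39 to 8.01). There were 12 genes with 2 runs each and none with more. ENG and HPS6 held the most run sites, 10 each in 2 runs, of 14 and 24 listed sites in the gene. CHST14, SDHAF1, TMEM127 and WNT7B held 9 each, also in 2 runs. CHST14 encodes the sulfotransferase that makes dermatan sulfate, SDHAF1 an assembly factor of succinate dehydrogenase, TMEM127 an endosomal tumour suppressor and WNT7B a WNT ligand. The remaining genes with 2 runs were APCDD1L, CCNF, IL4R, NFIC, PPARD and SEMA4C, with 8 run sites each.

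Genes with a run had a median of 10 listed sites (quartiles 7 and 14), against 3 (2 and 6) for genes without. Of the 48 genes with 20 or more listed sites, 26 held a run (54.2%, 40.3 to 67.4), and of the 1400 genes with 4 to 9 listed sites, 127 did (9.07%, 7.68 to 10.7). A gene with few listed sites cannot hold a run by the rule, so these shares describe the selection. In 17 of the 276 genes every listed site was inside a run. Over all 276, 1245 of 3173 listed sites (39.2%) lay in runs.

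Runs were more often in 3' UTRs than the remaining sites. Of run sites, 67.6% (65.0 to 70.2) lay in a 3' UTR, against 50.6% (49.9 to 51.4) of the 17544 other sites, and 25.2% (22.9 to 27.7) lay in coding sequence, against 40.3% (39.6 to 41.0). By whole runs, 174 were in a 3' UTR alone, 60 in coding sequence alone and 31 in both. Chains of 3 sites, just below the threshold, already had 26.3% of their sites in coding sequence. No gap within a run crossed an exon junction of the chosen host transcript. Such a gap would have to hold a whole intron within 50 nt of genome, so this largely follows from the rule.

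Small numbers of runs lay in the 5' UTR and in noncoding exons. The 5' UTR held 0.562% of run sites (0.273 to 1.16), less than its 2.45% of other sites (2.23 to 2.68). Noncoding exons held 2.41% of run sites (1.69 to 3.42) and 1.35% of other sites (1.19 to 1.53). These run sites came from few runs, and by whole runs the share was 7 of 287 (2.44%, 1.19 to 4.95). That interval includes 1.35%. U2AF2, the large subunit of the splicing factor that binds the polypyrimidine tract, was the gene with a run wholly in its 5' UTR, with scores from 0.511 to 0.747. The run of STK11, the kinase LKB1, held 3 sites in the 5' UTR and 1 in the coding sequence, with scores from 0.648 to 0.778. A single run lay in an intron of the chosen transcript, in FAM20C, a Golgi kinase of secreted proteins, with scores from 0.564 to 0.811. Exons of noncoding transcripts held 7 runs, among them AGAP2-AS1 with 5 sites and LINC00963, A1BG-AS1 and LINC02693 with 4 each. PCNX3, with 5 sites, is also among them because its chosen transcript has no coding sequence. Another 10 runs lay in exons of a transcript that was not the chosen one for the gene, among them those of FIZ1 and B4GALT2.

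Of exonic run sites, 92.5% (90.8 to 93.8) were in the last exon, compared with 75.4% of other exonic sites (74.7 to 76.0). The same held for coding sites alone, of which 74.8% (69.8 to 79.3) in runs and 48.4% of the others (47.3 to 49.6) were in the last exon. Coding sites of runs were rarely close to a splice junction: 3.11% (1.65 to 5.81) were within 100 nt of one, against 31.5% (30.4 to 32.7) of other coding sites in spliced transcripts. A run needs several sites within a short stretch of genome, which short exons cannot hold, and this part of the difference was not separated from the rest. Single-exon transcripts, such as those of HPS6, CHST14, SDHAF1, JUN and IER3, held 7.71% of exonic run sites (6.33 to 9.36) and 4.28% of other exonic sites (3.99 to 4.60).

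Run sites gathered around the stop codon. Within 200 nt of it on either side lay 46.1% of run sites (43.2 to 48.96) and 32.4% of other sites (31.7 to 33.1) in transcripts with an annotated stop codon. In the 3' UTR, the median distance downstream of the stop codon was 224 nt (198 to 250) for run sites and 307 nt (296 to 318) for other sites. The first 100 nt from the stop codon held the largest share of both sets, as the plot of distance from the stop codon shows.

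**Figure D2:**
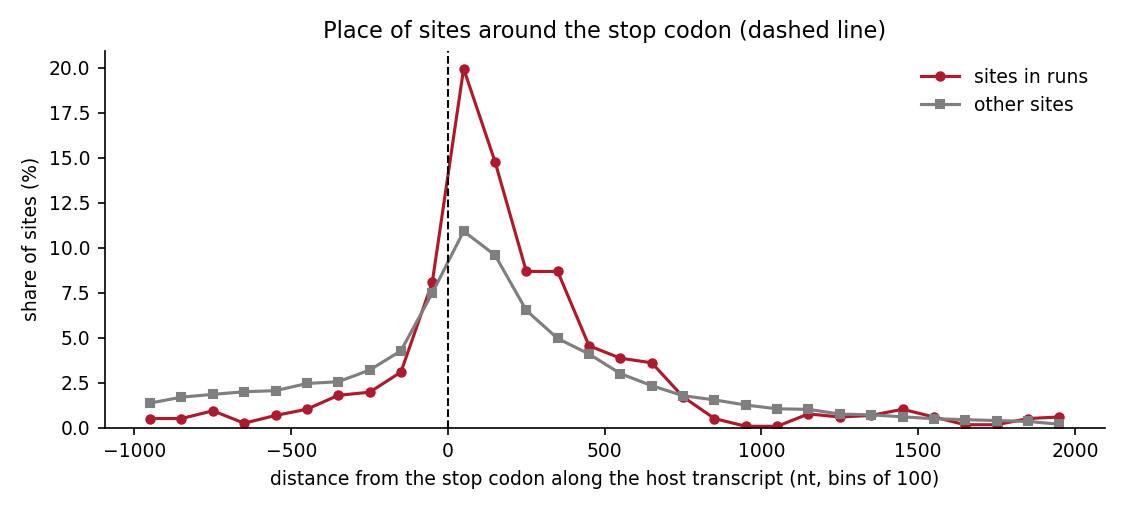
Share of sites (y axis, percent) by distance from the stop codon along the host transcript (x axis, nt, bins of 100) for run sites (circles) and other listed sites (squares), with upstream distances negative. Run sites exceed other sites in every bin from 100 nt upstream to 700 nt downstream, and again in the bins that start at 1400, 1500, 1800 and 1900 nt. They lie below other sites in the bins more than 100 nt upstream.

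In 29 runs the span held the stop codon itself, and 54 of their 127 sites (42.5%) lay before it. Among these, the runs with the most sites were those of NDST1, LEMD2 and HPS6, with 6 sites each. NDST1, which encodes the enzyme that starts sulfation of heparan sulfate chains, had 1 site 17 nt upstream of the stop codon and 5 sites in the 119 nt downstream, with scores from 0.655 to 0.919. LEMD2, a protein of the inner nuclear membrane, had sites from 33 nt upstream to 107 nt downstream, and its scores ran from 0.558 to 0.921. In HPS6 the sites reached from 50 nt upstream to 108 nt downstream, and the lowest score, 0.614, was at a coding site and the highest, 0.939, in the 3' UTR. JUN, the AP-1 transcription factor, began its run of 5 sites 9 nt after the start of the stop codon.

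The stop codon itself was a listed site in 9 runs. In each case the A was the last base of a TGA or TAA codon and the codon formed the start of the motif, as in TGACC or TAACT. That is 0.774% of run sites in transcripts with a stop codon (0.408 to 1.46), beside 47 of 16366 other sites (0.287%, 0.216 to 0.382). Their scores were low for a run, with a median of 0.615 and a range from 0.545 in APCDD1L to 0.748 in METTL13. CHST14 scored 0.697 there and GPC1, a cell-surface heparan sulfate proteoglycan, 0.568. Both are shown as 21 nt windows with the stop codon in capitals, at chr15:40472334-40472354 (plus strand) and chr2:240466280-240466300 (plus strand).
CHST14 stop codon: gtcagcagTGAccatgggtgt
GPC1 stop codon: ggtggcggTAActgccccaag

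Neighbouring sites of a run were a median of 23 nt apart (22 to 25, quartiles 12 and 37), over 958 gaps. The 3845 gaps in chains of 2 and 3 sites had the same median, 23 nt, and quartiles of 12 and 36. Both sets end at 50 nt by the rule, which used the gaps. Gaps of 4 to 16 nt made up 35.1% in runs and 34.1% in smaller chains, those of 17 to 33 nt 31.7% and 35.1%, and those of 34 to 50 nt 31.1% and 29.2%. The commonest gap was 6 nt, seen 37 times, followed by 4 and 9 nt, seen 35 times each. Gaps of 1 nt occurred 17 times, while gaps of 2 nt occurred once. DRACH motifs cannot start closer than 4 nt to each other by their letters, and 4 nt was the smallest gap between neighbours that were both at DRACH.

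**Figure D3:**
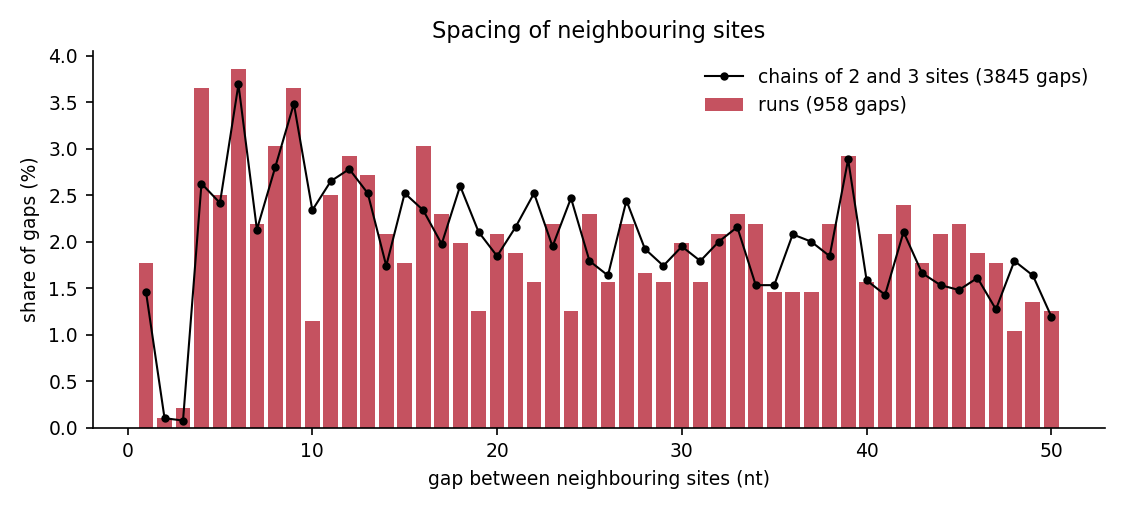
Share of gaps (y axis, percent) by gap length between neighbouring listed sites (x axis, nt) in runs (bars, 958 gaps) and in chains of 2 and 3 sites (line, 3845 gaps). Both are nearly empty at 2 and 3 nt, peak at 6 nt and hold similar shares from 4 to 50 nt.

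Gaps that were a multiple of 3 nt were more frequent in coding sequence than in 3' UTRs. Of 218 gaps between coding sites of runs, 94 (43.1%, 36.7 to 49.8) were a multiple of 3 nt, and in smaller chains 567 of 1217 were (46.6%, 43.8 to 49.4). In 3' UTRs of runs, 207 of 636 gaps (32.5%, 29.0 to 36.3) were multiples of 3 nt. The listed A was the middle base of its codon at 57.7% of coding run sites (52.2 to 63.1), and 49.03% (43.5 to 54.6) lay in the aspartate codon GAC. Other coding sites had shares of 58.1% and 47.5%, inside those intervals. In HPS6, the coding run of 4 sites in 26 nt had gaps of 8, 9 and 8 nt, with its sites in all 3 codon positions.

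Thresholds of the rule cut through a continuous range. There were 13 gaps of 49 nt and 12 of 50 nt within runs, and 4 runs of 4 sites would have fallen short with a largest gap of 49 nt. Just outside, 14 gaps of 51 nt and 10 of 52 nt separated chains that would together have made a run. Chains of 3 had a median score of 0.785 and runs of 4 a median of 0.780.

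Most run sites lay at DRACH, although less often than other sites: 1051 of 1245 (84.4%, 82.3 to 86.3) against 15611 of 17544 (89.0%, 88.5 to 89.4). GGACT was the commonest pentamer in runs with 205 sites. Its share of run sites was 15.1% in the 3' UTR (12.8 to 17.7) and 18.8% in coding sequence (14.9 to 23.5). Among other sites the shares were higher, 19.96% (19.1 to 20.8) and 23.6% (22.6 to 24.6), although the coding intervals overlap. Over all regions, GGACT was at 16.5% of run sites (14.5 to 18.6) and 22.0% of other sites. Chains of 3 sites were already near the runs, with 17.8% (16.2 to 19.6). GGACA followed with 157 run sites, AGACT with 135, GGACC with 129, GAACT with 109, TGACT with 69 and AGACA with 52. Outside DRACH, GGACG was at 46 run sites, GGATT at 24 and GTACT at 19. Sites outside DRACH had another listed site within 10 nt in 86 of 194 cases (44.3%, 37.5 to 51.4), compared with 307 of 1051 DRACH sites (29.2%, 26.5 to 32.0). There were 142 runs made of DRACH sites alone.

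RNF187, an E3 ubiquitin ligase, shows a run that rests on other motifs. It held 6 sites in 89 nt of the 3' UTR, of which only 2 were at DRACH, namely GAACT with a score of 0.933 and AGACT with 0.771. GGATT was listed at the first and the last site, with scores of 0.681 and 0.564. TGACG scored 0.679, and GGAAC, directly upstream of the GAACT site, scored 0.519.

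All 17 pairs of directly adjacent adenosines in runs followed the same order. The downstream A had the higher score in every pair, with a median of 0.917 (range 0.673 to 0.963) against 0.529 (0.513 to 0.635) for the upstream A. The upstream A is followed by A, so by the letters of DRACH it cannot be at the motif. The downstream A was at DRACH in 16 of 17 pairs, mostly as GAACT. Because the classifier read the sequence, the order of scores is not independent of this. In EPHA2 the values were 0.513 and 0.963, in MAPK12 0.635 and 0.903, in RRP12 0.522 and 0.873, and in TEX264 0.582 and 0.944. PSMD13, a proteasome subunit, was the exception, with a downstream A in GAATT at 0.673. In chains of 2 and 3 sites the downstream A was higher in 55 of 56 such pairs. Whether both adenosines of a pair carry a methyl group was not tested.

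Neighbours shared their pentamer in 10.4% of gaps, compared with 12.7% in chains of 2 and 3 sites. In 149 of 287 runs each site had a different pentamer, and in 113 the commonest pentamer occurred at 2 sites. In 25 runs at least 3 sites had the same pentamer, and in 14 of these it was GGACT. MICALL2, an effector of RAB13 at cell junctions, held 5 GGACT sites in 95 nt of the 3' UTR, starting 45 nt after the start of the stop codon, with scores of 0.861, 0.881, 0.899, 0.931 and 0.877. In ZFTRAF1 4 of 5 sites were at GGACA, with scores from 0.541 to 0.713.

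Repeats of a longer sequence were found in 3 runs, of which MICALL2 and LINC02693 are shown. In these the 21 nt windows around at least 1 pair of sites matched at 17 or more bases. In MICALL2 the windows of sites 1 and 4, which are 88 nt apart, matched at 19 of 21 bases, and each matched the window of site 3, 44 nt away, at 17. The 5 windows are shown with all listed adenosines in capitals, on the minus strand of GRCh38 within chr7:1434449-1434563.
MICALL2 site 1: tggcatccggActtggActcg
MICALL2 site 2: ccggActtggActcggggcca
MICALL2 site 3: cggaacccggActtgtactcg
MICALL2 site 4: cggcattcggActtggActcg
MICALL2 site 5: tcggActtggActcgggaagg

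LINC02693, a long noncoding RNA, held 4 sites exactly 25 nt apart (chr17:21535058-21535137, minus strand). The windows of its first and last sites matched at 18 of 21 bases, and the scores were 0.746, 0.787, 0.769 and 0.811. The authors kept uniquely mapping reads only, and its part in the scores of these near-copies was not tested.
LINC02693: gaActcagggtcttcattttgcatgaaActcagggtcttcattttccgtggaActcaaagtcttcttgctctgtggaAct

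Within a run nearly every strong motif was listed. The spans of all runs held 1251 DRACH motifs, or 5.31 per 100 nt, against 1.64 per 100 nt in the remainder of the same host transcripts. Of these, 1051 were listed sites (84.0%, 81.9 to 85.9), whereas 1538 of 15817 motifs outside runs were (9.72%, 9.27 to 10.2). Because the ends of a run are listed by construction, the share was also taken between the end sites, where 565 of 765 motifs were listed (73.9%, 70.6 to 76.8). Members of a run still had to be listed to form it, and most of them are DRACH motifs themselves. Both this share and the higher density of motifs in the spans are therefore descriptions of the selection. In 151 runs no DRACH motif was left unlisted, and in 86 a single motif was. Of the former, 6 runs held the most sites, 6 each, in ENG, FIZ1, RNF187, P3H3, ADGRE5 and LEMD2.

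The share listed varied with the letters of the motif. Between the end sites of runs, 106 of 110 GGACT motifs were listed (96.4%, 91.0 to 98.6), 61 of 64 GAACT (95.3%, 87.1 to 98.4), 76 of 80 AGACT (95.0%, 87.8 to 98.0) and 92 of 100 GGACA (92.0%, 85.0 to 95.9). At the other end were TGACA with 8 of 26 (30.8%, 16.5 to 49.99) and TGACC with 4 of 34 (11.8%, 4.67 to 26.6). By the last base, 90.7% (87.2 to 93.4) of motifs ending in T were listed, 66.7% (60.2 to 72.6) of those ending in A and 52.7% (45.8 to 59.5) of those ending in C. Outside the runs the order was the same at a lower level, with 20.2%, 7.27% and 4.51%. GGACT outside runs was listed at 343 of 1085 motifs (31.6%, 28.9 to 34.4). Of the 200 unlisted motifs inside runs, 95 ended in C and 32 in T. In CKAP4, 8 of 10 motifs were listed and in ARTN 7 of 10.

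Scores of run sites were slightly higher than those of other sites. The median was 0.787 (0.778 to 0.798, quartiles 0.687 and 0.863) in runs and 0.752 (0.748 to 0.754, quartiles 0.637 and 0.846) outside, a difference of 0.0351 that was small beside the spread of single sites. In the 3' UTR the medians were 0.806 (0.797 to 0.820) and 0.800 (0.797 to 0.803), with overlapping intervals, and in coding sequence 0.730 (0.706 to 0.759) and 0.706 (0.701 to 0.710), with intervals that also overlapped. At DRACH the medians were 0.809 and 0.766, and outside DRACH 0.641 and 0.619. A score of at least 0.9 was reached by 13.7% of run sites and 10.8% of other sites.

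By motif and region together, 16 classes were made from the 8 commonest pentamers of run sites in 3' UTR and coding sequence. The median was higher in runs for 15 of them. The intervals were apart only for GGACT and GAACT, each in both regions, and overlapped in the other classes. For GGACT in coding sequence it was 0.849 (0.814 to 0.884, 59 sites) in runs and 0.774 (0.766 to 0.781, 1665 sites) elsewhere. GGACT in the 3' UTR had 0.894 (0.884 to 0.912) in runs and 0.875 (0.870 to 0.881) elsewhere. GAACT in the 3' UTR, the class with the highest median in runs, had 0.9003 (0.884 to 0.917) and 0.877 (0.871 to 0.882). For GGACA in the 3' UTR the values were 0.813 and 0.806 and their intervals overlapped, while AGACT there had 0.835 and 0.811, also with overlapping intervals. AGACA in the 3' UTR was the class without a higher median, with 0.681 in runs and 0.684 elsewhere.

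**Figure D4:**
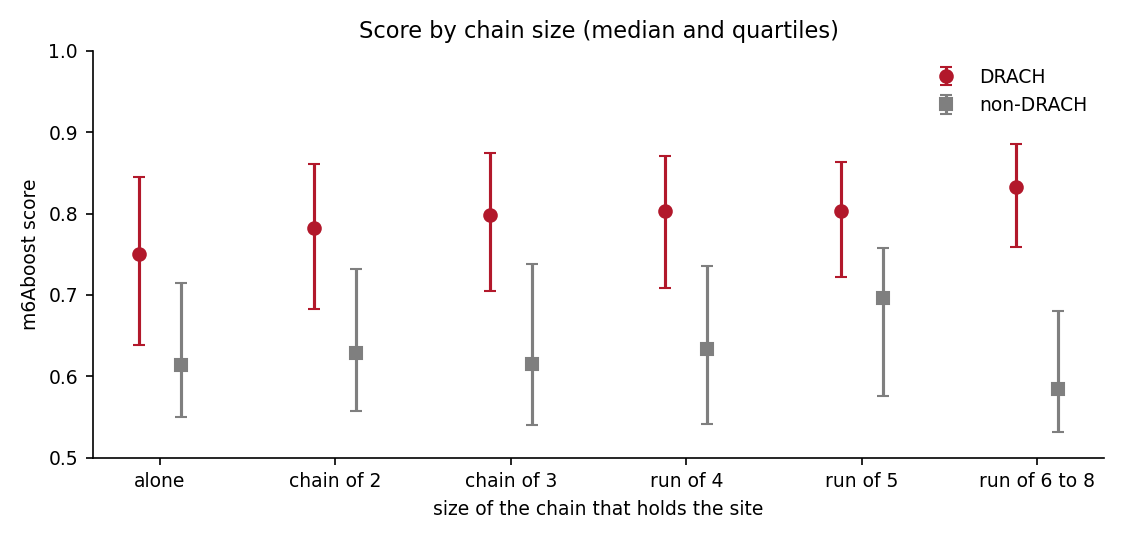
Median m6Aboost score (y axis) with quartiles as bars, by the size of the chain that holds the site (x axis), for DRACH sites (circles) and other sites (squares). DRACH medians go from 0.751 for sites alone to 0.832 in runs of 6 to 8, and the quartile bars of DRACH sites overlap between all chain sizes.

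The same comparison was made inside genes. In the 259 genes that held both run sites and other sites, the median score in the run minus that of the other sites of the gene had a median of 0.0286 (0.0145 to 0.0490), and the run was higher in 158 genes (61.0%, 54.9 to 66.7). The interval included 0 when runs were rebuilt from sites scoring at least 0.7, with 0.00955 (-0.0172 to 0.0364), and with a largest gap of 25 nt, with 0.0266 (-0.00667 to 0.0632). The differences ranged from -0.271 to 0.358 between genes. Region was not held fixed within genes, and among other sites the median score was 0.800 in the 3' UTR and 0.706 in coding sequence. The part of region in these differences was not tested. Scores also varied inside a run, with a median range of 0.236 between its highest and lowest site. The highest score of a run was at its first site in 70 runs, at its last in 59 and at an inner site in 158 (55.1%), while inner sites made up 53.9% of run sites. Inner sites had a median of 0.791 (0.779 to 0.806), first sites 0.773 (0.753 to 0.798) and last sites 0.787 (0.770 to 0.806).

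The runs with the highest median scores were those of POC1A, a centriole protein, with 0.945, IMP4, a component of the U3 processome, with 0.940, and B4GALT2, a galactosyltransferase, with 0.925. POC1A had scores of 0.646, 0.936, 0.953 and 1.000, of which the lowest was at GTACC and the highest at GAACT. In IMP4 all 4 sites were at GGACT or GAACT, with scores from 0.895 to 0.974. The lowest medians were those of TMEM186 with 0.563, IPO13, an importin, with 0.575 and WDR6, a partner of tRNA methylation, with 0.591. Sites of these 3 runs all lay in coding sequence. IPO13 nevertheless held a site at GGACT with a score of 0.913 among sites of 0.553, 0.511 and 0.597. In 81 runs every site scored at least 0.7.

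Runs were also counted by gene family, over chosen lists that do not hold every gene of a family. Of 3759 protein-coding genes with a listed site, 270 held a run (7.18%). Families with more listed sites per gene also had more opportunity to hold one, so counts are given with the number of sites, and no family was tested.

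Of 17 listed genes for heparan and chondroitin sulfate enzymes and proteoglycans, which build and carry the sulfated sugar chains of the cell surface, 5 held a run, with 27 of the 221 sites of the family. They were CHST14, NDST1, GPC1, SDC1 (syndecan 1) and XYLT2, a xylosyltransferase that starts the chains. CHST12, with a run of 5 coding sites, was not on the list and is not counted. SDC1 had 4 sites in 87 nt of its 3' UTR with scores from 0.780 to 0.876, while XYLT2 had 4 in 87 nt of coding sequence with scores from 0.687 to 0.958. Plexins, semaphorins, ephrins and integrins, which guide cell adhesion and migration, had 5 of 17 genes and 25 of 190 sites in runs. These were SEMA4C with 8 sites in 2 runs and ITGA3, EPHA2, PLXNA1 and PLXND1 with 1 run each. The first run of SEMA4C, a transmembrane semaphorin, ended 52 nt before the stop codon and the other began 80 nt after it. PLXND1 held 4 sites in 28 nt, with scores from 0.730 to 0.863.

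Immediate early genes had 4 of 14 listed genes and 19 of 115 sites in runs. IER3 held 6 sites, JUN 5 and CCN2 and IER2 4 each. JUN scored from 0.665 to 0.893 over 102 nt, and CCN2, a matricellular growth factor, from 0.505 to 0.927 over 32 nt that began 19 nt after the start of the stop codon. IER2 reached 0.958 at a GGACT. In RHOB, a small GTPase, 4 sites lay at chr2:20448654-20448702 on the plus strand with scores of 0.642, 0.871, 0.515 and 0.806.

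Several of the gene lists had listed sites but no run, beside a share of 7.18% over all protein-coding genes with a listed site. With 3 to 13 such genes in each of these lists, a count of 0 does not set a list apart from that share. Among these lists were WNT receptors and effectors (13 genes, 76 sites) and the integrated stress response with mTOR brakes (13 genes, 81 sites). D cyclins, CDK inhibitors and the MYC network (11 genes, 56 sites) and MAPK feedback inhibitors (10 genes, 56 sites) were others. Nuclear-encoded subunits of the respiratory chain (9 genes, 16 sites) had none either. RPTOR, MLST8 and STK11 held a run but were outside these lists, as was WNT7B with 2 runs. The Kruppel-like and SP factors (5 genes, 19 sites), the NOTCH pathway (3 genes, 12 sites) and the m6A writers, readers and erasers (3 genes, 17 sites) also held none. Cytosolic ribosomal proteins had 1 of 32 genes, RPL13, with 4 sites scoring 0.599 to 0.772 at DRACH and 0.526 at CAACT. Zinc finger genes of the ZNF series had 6 of 69 genes (8.70%) and 26 of 413 sites in runs. The list of matrix proteins had 2 of 15, namely COL6A3 and TNC, and that of the TGF-beta and BMP pathway 1 of 10, SMAD3. EMILIN1 and ENG held runs but were not on these lists. Histone methyltransferases, demethylases and coactivators had 1 of 16 (NSD2), while KAT2A and HDAC6 held runs outside that list. Of the other lists, ID, HES and BHLHE regulators had 1 of 5 (BHLHE40) and Hippo pathway genes 1 of 9 (CCN2). Receptor tyrosine kinases had 1 of 10 (EPHA2) and giant cytoskeletal linkers 1 of 12 (PLEC).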

How the data were processed

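The deposited list gives 1 adenosine per line with strand and prediction score, a fraction between 0.5 and 1 that the authors obtained with m6Aboost. Per the labels, reads were processed with UMI-tools 1.0.0, STAR 2.7.3a, SAMtools 1.9 and bedtools 2.27.1 on GRCh38. According to the methods, peaks were taken per replicate and kept when found in at least 2 replicates; the list holds neither counts nor depth, so the precision of a single score is unknown. All 18789 positions were adenosines of the genome and none was repeated.

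Sites were chained as described (largest gap 50 nt, at least 4 sites). Each gene was represented by its longest spliced transcript of GENCODE release 44 (support level up to 3, annotation level up to 2, protein-coding first), a later release than the authors' release 31. Regions, codons, junctions and distances from the stop codon come from that transcript. DRACH motifs were searched on the strand of the run. Shares have Wilson intervals and medians order-statistic intervals. Chaining was tested on simulated data, where all 496 planted runs were found. Python 3.11.15, numpy 2.4.6, scipy 1.17.1 and pysam 0.24.0 were used.

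The runs, the gene lists and the rule for named genes were chosen with earlier results of these data known. The rule named the runs with the most sites, shortest span, highest and lowest median score, most repeated pentamer, complete motif listing or a stop codon in the span, the genes with the most run sites, and up to 4 genes of each list. Sites are not replicates, so no test was run. Alternatives to the largest gap, chain size, score, motif, distance and transcript are given at the end. Some results that the rule names are not reported here.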

Additional observations from a re-analysis of the deposited data

How the results depend on the processing

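The list is shared by all replicates, so leaving out a replicate was not possible. No paired analysis was possible because the list has neither a second group nor replicate numbers. Of 66 comparisons with an alternative, 32 stayed within the interval of the value given (for the number of runs, within 1.5 times) and 34 moved outside it. None changed sign, which only the score differences could do. With a largest gap of 25 nt there were 59 runs, with 1.304% of sites, a median gap of 12 nt, 81.2% at DRACH, 71.8% in the 3' UTR, 19.6% in coding sequence and 92.6% of DRACH motifs listed. With 100 nt there were 828 runs, with 21.8% of sites, a median gap of 39 nt, 87.0% at DRACH, 27.8% in coding sequence and 71.2% of motifs listed. Chains of 3 or more gave 956 runs with 17.3% of sites and 87.0% at DRACH. Chains of 5 or more gave 70 runs with 2.01% of sites, 71.1% in the 3' UTR, 20.7% in coding sequence, 81.3% of motifs listed and a within-gene score difference of 0.0668. From sites scoring at least 0.7, 102 runs remained, with 3.76% of those sites, 92.3% at DRACH, 78.6% in the 3' UTR, 15.1% in coding sequence, a score difference of 0.0152 and a within-gene difference of 0.00955 (-0.0172 to 0.0364), whose interval includes 0, as does that with a largest gap of 25 nt (0.0266, -0.00667 to 0.0632). From DRACH sites alone, 164 runs held 4.25% of them, with a median gap of 25.5 nt, 62.0% in the 3' UTR and a within-gene difference of 0.0512. Across these alternatives the 3' UTR share of run sites was between 62.0% and 78.6%. Distance along the spliced transcript (277 runs) and the canonical transcript moved no value outside its interval. Depth, replicate spread and a control without m6A, which would bear on single sites, were not analysed here.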

Other observations

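A gap of 39 nt stood above its neighbours in both kinds of chain, with 28 of 958 gaps in runs (2.92%, 2.03 to 4.19) and 111 of 3845 in chains of 2 and 3 sites (2.89%, 2.40 to 3.46). Over all chains, 55 gaps between coding sites were 39 nt long, against 24 of 38 nt and 20 of 40 nt, while between 3' UTR sites there were 67, 54 and 48. This gap was singled out after the values were seen, and its cause was not tested.

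Runs were found on nearly every chromosome with listed sites. The share of sites in runs was 9.10% on chromosome 16 (7.75 to 10.7) and 3.67% on chromosome 11 (2.78 to 4.84). Chromosome 21 had none among 158 listed sites, for which the upper Wilson limit is 2.37% (3 counts would be 1.90%).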
